A study of Mus musculus with 4 samples.

Results

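Oxidative phosphorylation genes were examined in cultured mouse primary myoblasts from wild-type mice and mice without functional Tet2, one of the enzymes that start active removal of DNA methylation. The set comprised every gene of the deposited table whose symbol begins with Nduf, Uqcr, Atp5 or Cox followed by a digit from 4 to 8, together with Sdha, Sdhb, Sdhc and Sdhd. It held 93 of 24445 genes. These were 82 structural subunits, 8 assembly factors of complex I and 3 genes that share a symbol but are not subunits.

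RNA was sequenced from 4 libraries, 2 labelled WT and 2 labelled Tet2 KO, all of strain C57BL/6. Satellite cells were sorted from hindlimb skeletal muscle, grown on collagen for at least 3 days without other treatment and collected as MyoD-positive myoblasts. The Tet2 KO mice carried a constitutive deletion of exon 3, present in every tissue and not restricted to muscle. Both groups came, by default in the study, from male mice 8 to 10 weeks old. The table gave 1 FPKM value (fragments per kilobase of transcript, scaled to all mapped fragments) per gene and group, which combined the libraries of the group. Expression values are therefore given without a standard deviation and differences without a replicate check. The authors' own test in the table was not used, and all comparisons are descriptions of the pooled values.

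Oxidative phosphorylation takes place in the inner mitochondrial membrane. Complex I (NADH dehydrogenase) and complex II (succinate dehydrogenase) feed electrons to ubiquinone, complex III passes them to cytochrome c and complex IV (cytochrome c oxidase) passes them to oxygen. The proton gradient built on the way drives the ATP synthase. Most subunits are encoded by a single nuclear gene used in every tissue, but several small subunits of cytochrome c oxidase have a second gene that heart and skeletal muscle switch on as they mature. Cox6a2, Cox7a1 and Cox8b are these muscle isoforms, and Cox6a1, Cox7a2 and Cox8a are their general partners.

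Tet2 itself had 5.79 FPKM in Tet2 KO against 6.64 in WT. This value covers all exons and not the deleted one alone, so it does not check the labels. All 6 myoblast markers, Myod1 and Pax7 among them, were expressed, with summed levels of 1028 FPKM in Tet2 KO against 1153 in WT. Ratios are given as log2((Tet2 KO FPKM + 1) / (WT FPKM + 1)), so negative values mean lower in Tet2 KO and the ratio of low genes is understated. A gene was called expressed when the mean of its 2 values was at least 1 FPKM, which 11692 genes and 89 of the 93 oxidative phosphorylation genes reached. The median ratio of all expressed genes was -0.0044. Steps between the low deposited values were used to estimate what a single fragment was worth on a transcript of 1 kilobase. The estimates were 0.0192 FPKM in Tet2 KO against 0.0189 in WT, so the estimated depth was nearly the same. Depth was not read directly, because the libraries of a group were combined and scaled in a way that is not given.

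Promoter sequences are shown for 5 of the 6 genes of the isoform pairs, to set muscle and general forms side by side. Cox6a2 was not matched. They are the 250 bases before the start annotated by RefSeq (GRCm38.p6), placed on mm9 by exact match. Capitals mark every CANNTG, the E-box that MyoD and myogenin bind, except in Cox6a1, where they mark GCGCANGCGC, the motif of the respiratory gene activator NRF1, read on either strand.
Cox8b, minus strand, chr7:148086346-148086595: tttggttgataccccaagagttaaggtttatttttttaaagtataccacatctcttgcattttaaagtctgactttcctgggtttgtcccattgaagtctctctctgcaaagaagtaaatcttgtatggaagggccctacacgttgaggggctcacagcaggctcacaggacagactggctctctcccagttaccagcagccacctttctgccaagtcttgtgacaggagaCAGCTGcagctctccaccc
Cox8a, minus strand, chr19:7292107-7292356: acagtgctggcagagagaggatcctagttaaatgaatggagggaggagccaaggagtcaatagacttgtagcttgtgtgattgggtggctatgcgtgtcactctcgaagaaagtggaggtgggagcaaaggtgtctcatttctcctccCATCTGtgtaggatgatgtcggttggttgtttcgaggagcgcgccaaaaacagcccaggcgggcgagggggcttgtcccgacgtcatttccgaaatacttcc
Cox7a1, plus strand, chr7:30968940-30969189: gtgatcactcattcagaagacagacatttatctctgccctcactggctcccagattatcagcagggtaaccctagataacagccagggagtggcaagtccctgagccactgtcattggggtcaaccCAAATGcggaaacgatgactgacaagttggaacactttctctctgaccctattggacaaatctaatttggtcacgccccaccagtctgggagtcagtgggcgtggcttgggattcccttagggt
Cox7a2, minus strand, chr9:79607661-79607910: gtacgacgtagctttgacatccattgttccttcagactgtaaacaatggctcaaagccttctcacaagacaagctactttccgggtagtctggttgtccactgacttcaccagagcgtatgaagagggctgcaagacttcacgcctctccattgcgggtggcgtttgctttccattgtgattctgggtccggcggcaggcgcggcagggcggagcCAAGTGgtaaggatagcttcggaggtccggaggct
Cox6a1, minus strand, chr5:115798968-115799217: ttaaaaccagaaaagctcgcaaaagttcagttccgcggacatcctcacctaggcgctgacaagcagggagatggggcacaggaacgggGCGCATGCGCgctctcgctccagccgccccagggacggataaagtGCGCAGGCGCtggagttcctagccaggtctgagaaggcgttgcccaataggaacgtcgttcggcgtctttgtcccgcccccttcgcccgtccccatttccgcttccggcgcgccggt

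The muscle isoforms were examined first. Cox6a2 and Cox8b were the genes of the set that lay past a 1.5-fold difference, both lower in Tet2 KO, and no gene of the set lay past it in the other direction. That is 2 lower and 0 higher among 89 expressed genes, beside 2.89% lower and 3.72% higher among all expressed genes. The count itself is thus close to the background, and what sets these genes apart within the set is the size of their difference.

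Cox8b, on the minus strand of chromosome 7 from 148084842 to 148086345 (mm9, GENCODE annotation, 2 exons), encodes the muscle form of subunit VIII. It had 5.22 FPKM in Tet2 KO against 15.3 in WT, a 2.93-fold lower value and a log2 ratio of -1.39. Its general partner Cox8a, on chromosome 19, had 649 FPKM in Tet2 KO against 643 in WT. Cox8b thus made up 0.798% of the summed FPKM of the pair in Tet2 KO and 2.32% in WT, while the level of Cox8a was nearly the same in both groups.

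Cox6a2, on the minus strand of chromosome 7 from 135348950 to 135349880 (3 exons), encodes the muscle form of subunit VIa. It had 2.61 FPKM in Tet2 KO against 8.32 in WT, a 3.19-fold lower value and a log2 ratio of -1.37. Cox6a1, its partner on chromosome 5, had 337 FPKM in Tet2 KO against 322 in WT. The muscle form made up 0.768% of this pair in Tet2 KO and 2.51% in WT. The deposited table joins Cox6a2 with Itgad and 4931431B13Rik into 1 locus, but both of these were at 0.00946 FPKM or below.

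Cox7a1, on the plus strand of chromosome 7 from 30969190 to 30971047 (4 exons), encodes the muscle form of subunit VIIa and gave smaller differences. It had 8.92 FPKM in Tet2 KO against 10.9 in WT, a log2 ratio of -0.27, and did not pass 1.5-fold. Cox7a2, on chromosome 9, was itself lower, with 213 FPKM in Tet2 KO against 286 in WT. The muscle form therefore made up 4.02% of the pair in Tet2 KO and 3.69% in WT, a nearly equal share, unlike the shares of Cox6a2 and Cox8b.

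All 3 muscle isoforms lie on chromosome 7, which holds 10 of the 93 genes. They were low transcripts in both groups, and in WT their summed level was 34.5 FPKM beside 4545 FPKM for the 10 general subunits of complex IV. In Tet2 KO these sums were 16.7 and 4450 FPKM. By annotated transcript length, Cox6a2 rested on roughly 89.3 fragments in Tet2 KO and 290 in WT, Cox8b on 98.5 and 293, and Cox7a1 on 169 and 211. These are rough upper figures, because the length that enters FPKM is shorter than the annotated one, and they bear on counting error only.

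**Figure D1:**
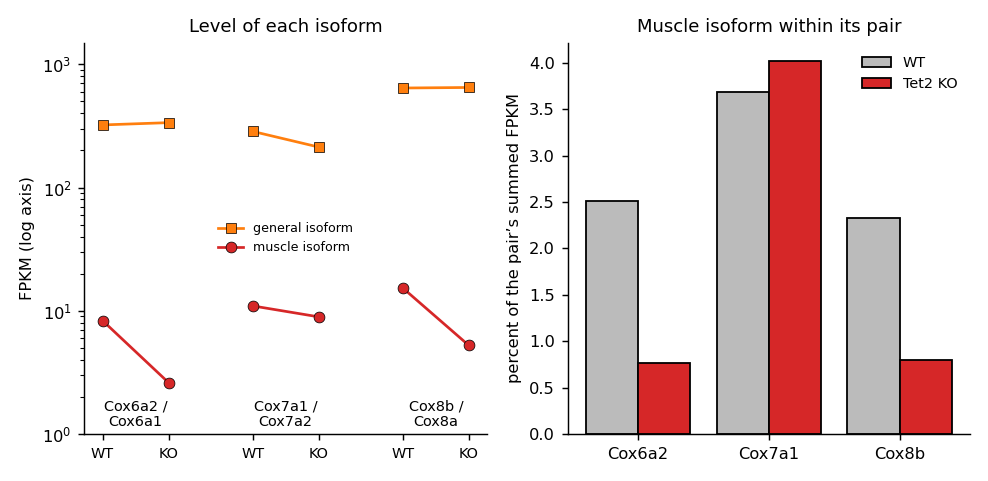
Left, FPKM (log axis) of each muscle isoform (circles) and its general partner (squares) in WT and Tet2 KO, 1 pooled value per group. Right, the muscle isoform as a percent of the summed FPKM of its pair. The share of Cox6a2 is 2.51% in WT and 0.768% in Tet2 KO, that of Cox8b 2.32% and 0.798%, and that of Cox7a1 3.69% and 4.02%.

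Promoter letters were set side by side within the pairs of Cox8b and Cox7a1, while Cox6a1 had no partner window. The E-box in the Cox8b window is CAGCTG and begins 19 bases before the start. The windows of Cox7a1, Cox7a2 and Cox8a each hold a single E-box of other letters, beginning 124, 35 and 102 bases before it. The form CAGCTG is found in 14.7% of all genes with such a window and in 7.79% of the 77 oxidative phosphorylation genes that could be matched by symbol. E-boxes of any letters are common, present in 69.3% of all genes and 66.2% of these. Neither the MEF2 consensus nor AAGGTCA, the letters bound by estrogen-related receptors, was found in any window shown, muscle or general, on either strand. Across all genes they occur in 0.592% and 4.70%, and across the matched oxidative phosphorylation genes in 0% and 6.49%. The NRF1 motif occurs at 2 positions in Cox6a1, whose window holds no E-box. It was not found in the general forms Cox8a and Cox7a2, nor in Cox8b and Cox7a1, so it does not separate general from muscle forms here. It was present in 18.2% of the oxidative phosphorylation genes and 4.23% of all genes. All motifs were searched on both strands, CAGCTG is also counted among the E-boxes, and a match in letters is not a binding site.

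Genes outside this set place the muscle isoforms among other muscle transcripts. All 10 markers of differentiated muscle were lower in Tet2 KO past 1.5-fold, beside 2.89% of all expressed genes. Their median ratio was -1.55 and their summed level was 1098 FPKM in Tet2 KO against 2872 in WT. The range ran from -1.92 for Tnnc2, the fast skeletal troponin C, to -0.93 for Ckm, the muscle creatine kinase. The paper already reports genes of muscle differentiation, Myog among them, as lower in these cells, so this list is not independent of it. The myoblast markers, by comparison, had a median of -0.10. All 10 leukocyte markers were higher past 1.5-fold, beside 3.72% of all expressed genes. Their median was 1.72 and their summed levels were 468 FPKM in Tet2 KO against 119 in WT, although the sort had removed CD45- and CD11b-positive cells. Of the 5 expressed fibroblast markers 1 was higher past 1.5-fold, Dcn at 0.95, beside the same 3.72%. The part of these markers in the difference of Cox6a2 and Cox8b was not tested, and in a bulk sample fewer cells of a type and less RNA per cell cannot be told apart.

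Brown fat and heart also use these isoforms. Of 6 brown adipocyte markers, 2 were expressed, Elovl3 at 4.63 FPKM in Tet2 KO against 4.06 in WT and Ppargc1a at 1.14 against 1.07. Ucp1, which defines brown fat, was at 0.0123 FPKM in Tet2 KO against 0.0125 in WT, and Adipoq was listed at 0 in both. Cidea had 0.0928 FPKM in Tet2 KO against 0.341 in WT, and Prdm16 had 0.233 and 0.190 FPKM. None of the 4 cardiac markers was expressed. Tnni3 was the highest of them, at 0.53 FPKM in Tet2 KO against 0.54 in WT, and Myl7 was listed at 0 in both groups. Ucp1, Adipoq and Myl7 were thus at or near 0, and the other markers that were not expressed lay below the 1 FPKM limit.

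Apart from the muscle isoforms, the 86 other expressed genes of the set stayed close together. None of them lay past 1.5-fold, and 2 had a log2 ratio beyond 0.32 in size, Cox7a2 and the complex I assembly factor Ndufaf1, both lower. Over all expressed genes 7.03% were lower and 7.04% higher by more than this. Ratios were smaller among highly expressed genes, with a median absolute value of 0.07 at a mean of at least 50 FPKM against 0.10 for all expressed genes, so the former give the closer background. Past 1.1-fold in either direction lay 7 of 72 oxidative phosphorylation genes at that level (9.72%), beside 23.5% of all 1896 genes at that level. Their central 95% of ratios ran from -0.18 to 0.19, beside -0.49 to 0.38 for all genes at that level.

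**Figure D2:**
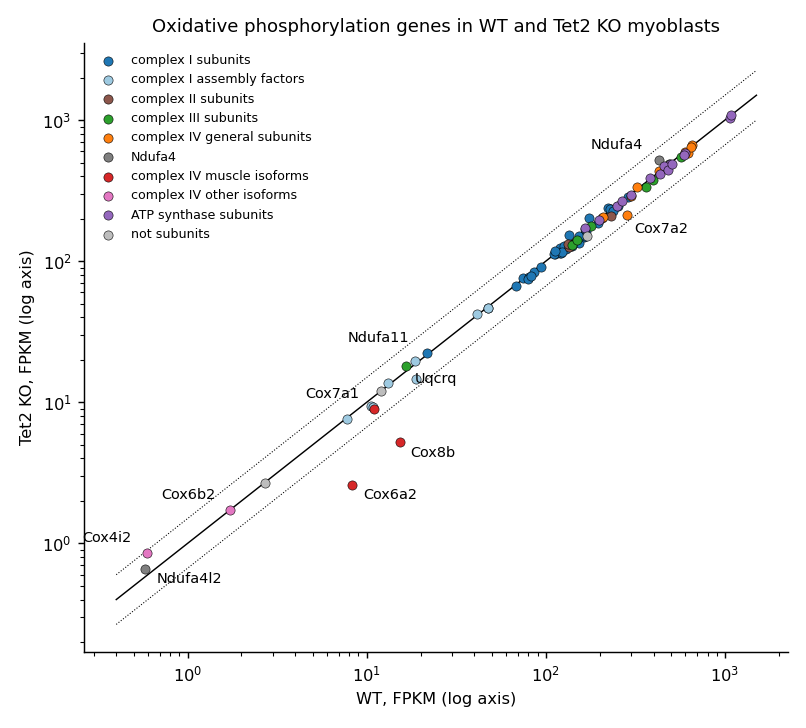
Tet2 KO against WT FPKM (both log axes) for the genes of the set above 0 in both groups, coloured by complex. The solid line marks equal values and the dotted lines 1.5-fold of FPKM as deposited. Most points follow the line of equal values, up to 1094 FPKM. Among the low genes, Cox6a2 and Cox8b lie below the lower dotted line. Cox4i2 lies above the line of equal values, at 0.858 FPKM in Tet2 KO against 0.597 in WT.

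More genes were slightly lower than slightly higher. A ratio below 0 was found for 60 of the 89 expressed genes (67.4%), beside 51.2% of all expressed genes, and for 49 of the 72 at 50 FPKM or more, beside 46.1% of all genes at that level. The size was small, with a median of -0.03 for the 89 genes. Over all 93 genes the summed level was 20331 FPKM in Tet2 KO against 20682 in WT, or 3.60% and 3.65% of the summed FPKM of all genes. The 2 sums differ by -1.70% of the WT value. No spread between libraries is available to set beside a difference of this size.

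These were abundant transcripts. In all, 67 of the 89 expressed genes lay in the top 10% of expressed genes by level, and 72 had at least 50 FPKM (80.9%, beside 16.2% of all expressed genes). Their annotated transcripts were short, with a median of 955 bases beside 3008 bases for all expressed genes, at a similar GC content (50.9% and 50.3%). Levels were ordered by complex in both groups. The general subunits of complex IV had a median of 456 FPKM in Tet2 KO against 458 in WT, the ATP synthase 445 and 456, complex III 256 and 270, complex II 167 and 170, and complex I 126 and 128. Neighbours in this order, such as complex IV and the ATP synthase, overlapped widely in the levels of their genes.

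Complex I was represented by 36 subunits, of which 13 had a ratio above 0 and 23 below, with a median of -0.03. Ndufb8, an accessory subunit of the membrane arm, was the highest at 285 FPKM in Tet2 KO against 288 in WT. The lowest was Ndufa11 at 22.4 and 21.6 FPKM. The largest ratio was that of Ndufa12, an accessory subunit, with 204 FPKM in Tet2 KO against 175 in WT (0.21), and the smallest was that of Ndufa5, a subunit of the peripheral arm, with 134 and 153 FPKM (-0.20). At the level of at least 50 FPKM, 6.43% of all genes were at least as far up as Ndufa12 and 7.75% at least as far down as Ndufa5, so neither was unusual for its level. The core subunits that carry the flavin and iron-sulfur clusters had ratios near 0, among them Ndufv1 at 116 and 123 FPKM, Ndufs1 at 90.6 and 94.2 FPKM and Ndufs8 at 113 and 112 FPKM.

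Ndufs5, another accessory subunit, needs its neighbour to be read. It had 153 FPKM in Tet2 KO against 134 in WT, a ratio of 0.19. The deposited table lists BC002163 at the same locus, chromosome 4 from 123389953 to 123395429, with 24.5 FPKM in Tet2 KO against 58.6 in WT, while the GENCODE annotation of the same build has BC002163 as a pseudogene on chromosome 16. Of the longest Ndufs5 transcript, 64.3% had a near-identical copy elsewhere in the genome. Summed over the 2 entries the values were 177 and 193 FPKM and the ratio was -0.12, so the direction for Ndufs5 is uncertain.

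The 8 assembly factors of complex I, which help build the complex without staying in it, were expressed an order lower, at medians of 14.2 FPKM in Tet2 KO against 15.9 in WT. Ndufaf8 was the highest at 46.6 and 47.6 FPKM. Ndufaf1 differed most, with 14.7 FPKM in Tet2 KO against 18.8 in WT (-0.34), and Ndufaf4 had the largest ratio, with 19.6 and 18.6 FPKM (0.07). The list median was -0.03, and 5 of the 8 ratios were below 0.

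Complex II has 4 subunits, all encoded in the nucleus, and all 4 ratios were below 0. Sdhd, a membrane anchor, had 210 FPKM in Tet2 KO against 232 in WT (-0.14), the largest difference. Sdha, the flavoprotein, had 126 and 134 FPKM (-0.09). Sdhc, the other anchor, had 132 and 134 FPKM (-0.02), so the differences ran from -1.13% to -9.57% of the WT level.

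Of the 8 complex III genes, 6 had ratios below 0, and the median was -0.06. Uqcrh, the hinge protein, was the highest at 546 FPKM in Tet2 KO against 570 in WT. Uqcrb, a ubiquinone-binding subunit, had the smallest ratio, with 334 and 363 FPKM (-0.12). Uqcrq had the largest, with 17.9 FPKM in Tet2 KO against 16.5 in WT (0.12), and was also far below the other subunits of its complex in level.

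Complex IV held the widest range. Of its 10 general subunits, 9 had ratios between -0.09 for Cox6b1 and 0.06 for Cox6a1, and the median of all 10 was -0.01. Cox7c was the highest at 662 FPKM in Tet2 KO against 652 in WT, and Cox4i1, which shapes regulation of the enzyme by ATP, had 596 FPKM in both. Cox7a2 was the exception at -0.42, and 2.95% of all genes at 50 FPKM or more were at least as far down. No stretch of its transcript had a near-identical copy elsewhere in the genome.

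Cox7a2l has been linked to supercomplexes of complex III and complex IV and is not a subunit of the enzyme itself. It had 150 FPKM in Tet2 KO against 170 in WT (-0.17), with 93.6% of its transcript copied elsewhere. At its level 9.02% of all genes were at least as far down. Ndufa4, first assigned to complex I and now counted with complex IV, had the largest ratio of the expressed set, with 519 FPKM in Tet2 KO against 430 in WT (0.27). At that level 4.59% of all genes were at least as far up. Atp5sl and Atp5s, which share a symbol with the ATP synthase but are not among its subunits, had 12.1 FPKM in both groups and 2.69 FPKM in both groups.

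ATP synthase genes differed little. Its 15 genes had ratios from -0.11 for Atp5l, the g subunit, to 0.05 for Atp5g2, with a median of -0.02. Atp5k, the e subunit, had 1094 FPKM in Tet2 KO against 1079 in WT, and Atp5b, the catalytic beta subunit, had 1030 and 1064 FPKM. Atp5g1, Atp5g2 and Atp5g3 encode the same mature c subunit. They made up 20.5%, 36.0% and 43.5% of its summed FPKM in Tet2 KO, and 20.2%, 34.7% and 45.1% in WT, so the mix of c subunit genes was nearly equal.

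**Figure D3:**
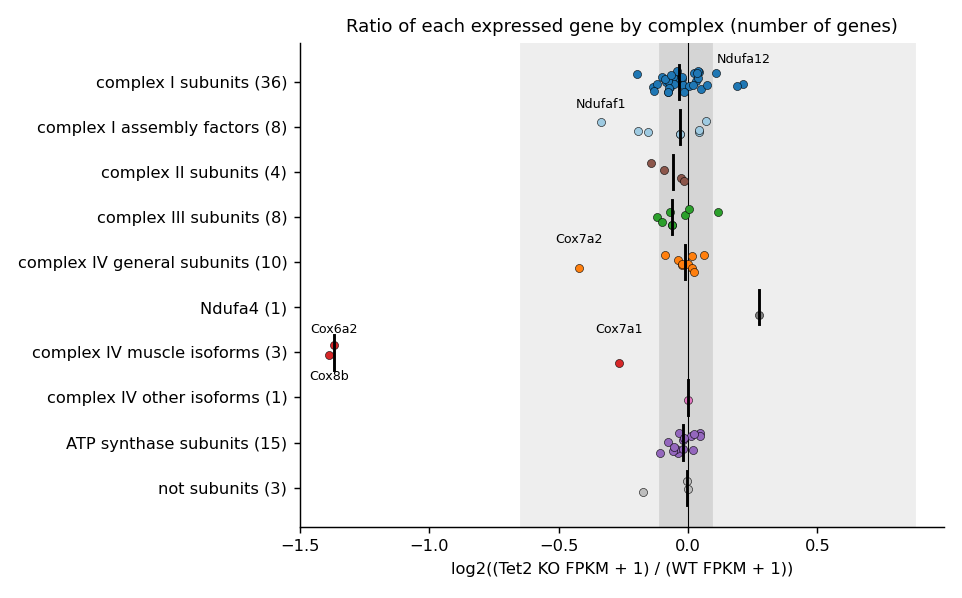
Ratio of each expressed gene by complex, with the number of genes in parentheses. Points are genes, spread vertically for legibility, black bars are medians, the light band holds the central 95% and the dark band the central 50% of all expressed genes. Cox6a2 and Cox8b lie outside the light band, and of the other genes Cox7a2 at -0.42 lies furthest down and Ndufa4 at 0.27 furthest up.

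Isoforms used outside striated muscle were low in both groups. Cox4i2, the lung and hypoxia form of Cox4i1, had 0.858 FPKM in Tet2 KO against 0.597 in WT, in a locus the table joins with Bcl2l1. Ndufa4l2, a hypoxia-induced relative of Ndufa4, had 0.660 and 0.581 FPKM. The testis form Cox6b2 had 1.72 FPKM in both groups, while its general partner Cox6b1 had 586 and 624 FPKM. Cox7b2 and Cox8c, also testis forms, were listed at 0 in both groups. None of these isoforms made up more than 0.293% of its pair in either group.

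Sequence copies limit some of these values. Of the 89 expressed genes, 17 matched other genomic places (at least 95% identity over at least 50 bases) along at least 50% of the longest transcript, so their reads can be shared with pseudogenes. Their median absolute ratio was 0.06, beside 0.04 for the other 72. Neither Cox6a2, Cox7a1 nor Cox8b had any such stretch.

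Counts for further mitochondrial genes are near the background of 3.72% higher and 2.89% lower, at which few genes of a list this short would pass. Of 29 expressed genes for assembly factors, cytochrome c and subunits with other symbols, 0 lay past 1.5-fold and the median was -0.01. They ranged from -0.19 for Nubpl to 0.54 for Timmdc1, both assembly factors of complex I, and Timmdc1 had 17.8 FPKM in Tet2 KO against 11.9 in WT, just inside 1.5-fold and further from 0 than any gene of the set other than Cox6a2 and Cox8b. Of 18 expressed regulators of mitochondrial gene expression and biogenesis, 0 lay past 1.5-fold. Their ratios ran from -0.11 for Ppargc1b to 0.20 for Gabpb1, with a median of -0.02, and Ppargc1a, the best known coactivator of these genes, had 1.14 and 1.07 FPKM. Nrf1 had 31.2 and 29.7 FPKM, Esrra 27.3 and 28.3 FPKM and Tfam 22.1 and 22.4 FPKM. Among 19 expressed general mitochondrial genes such as import receptors, chaperones and fusion proteins, 0 lay past 1.5-fold, from -0.23 for Mfn2 to 0.14 for Tomm40. The 13 subunits encoded by mitochondrial DNA were not analysed here.

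The list of partners of mitochondrial energy supply in muscle was mixed, and not every gene on it is particular to muscle. Of 8 expressed genes other than Cox6a2, 3 were lower past 1.5-fold and 0 were higher, beside 2.89% and 3.72% of all expressed genes. Mb, the oxygen-binding myoglobin, had 21.8 FPKM in Tet2 KO against 55.2 in WT (-1.30), and Fabp3, the muscle fatty acid carrier, had 4.45 and 8.07 FPKM (-0.73). Hspb7, a small heat shock protein of muscle rather than a mitochondrial protein, had 0.486 and 2.23 FPKM (-1.12), and since it reached the 1 FPKM limit through WT alone, its direction was fixed by that limit. Slc25a4, the adenine nucleotide carrier of muscle, had 460 and 503 FPKM (-0.13) and made up 39.7% of its pair with the general carrier Slc25a5 in Tet2 KO and 42.7% in WT. The matrix enzymes Idh3a and Acadm were at 0.00, as was Pdk4, and Coq10a had 2.57 and 3.27 FPKM (-0.26). Ckmt2 and Cpt1b stayed under the 1 FPKM limit, at 0.0556 and 0.230 FPKM and at 0.707 and 0.824 FPKM. The 3 genes past 1.5-fold encode cytosolic proteins, while Cox6a2, which was left out of this count, encodes a mitochondrial one and was at -1.37.

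**Figure D4:**
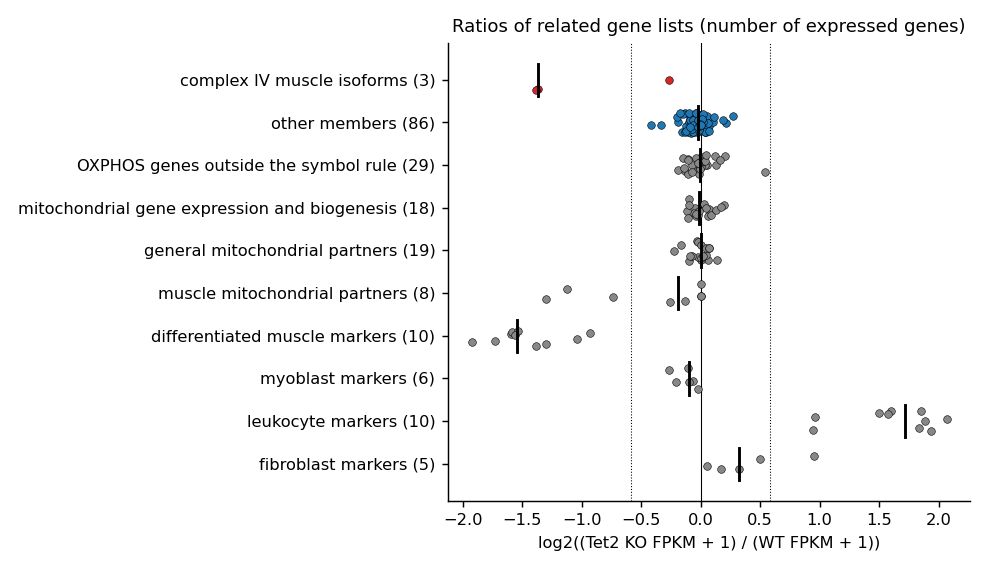
Ratios of the muscle isoforms, the other expressed genes of the set and related lists, with the number of expressed genes in parentheses. Points are genes, black bars medians and dotted lines 1.5-fold. General mitochondrial lists have medians between -0.02 and 0.01, the differentiated muscle markers lie between -1.92 and -0.93, and the leukocyte markers between 0.94 and 2.07.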

How the data were processed

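Per the submitters' notes and the study's methods, the authors used CASAVA, assessed reads with FastQC, removed adapter sequence and poor reads, mapped the pairs to mm9 with TopHat2 2.0.13 and ran Cuffdiff 2.2.1 to compare genotypes. The deposited values are the authors' FPKM. The TruSeq v2 kit does not mark strand. How libraries were combined and which gene annotation was used are not given in the sources used here. The deposited table also holds the authors' own comparison (a fold change, a test statistic, p- and q-values and a status), which was not used.

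From the deposited FPKM, log2 ratios with a pseudocount of 1 were computed. With 1 value per group no test was made. Genes were counted past 1.5-fold among those with a mean of at least 1 FPKM and set beside the same share of all genes. The members and gene lists were chosen with earlier results of these data known. Named genes were the isoform pairs, genes past 1.5-fold, and the highest and extreme genes of each complex and list. Core subunits of complex I, Atp5b, Sdha, Nrf1, Esrra, Tfam, Ndufs5, BC002163 and the marker examples were named after their values were seen.

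Depth was estimated from the smallest steps of values of genes with 1 annotated transcript of at least 2000 bases. Gene positions and transcripts came from GENCODE vM1 on NCBIM37 (the build mm9), with 4 of the 93 genes matched by an older symbol. Copies were searched with BLAST+ 2.17.0. Locus starts of the table were raised by 1 to count from 1. Counting past the fold was tested on simulated data. Python 3.11.15, numpy 2.4.6, pandas 2.3.3 and matplotlib 3.10.9 were used.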

Additional observations from a re-analysis of the deposited data

How the results depend on the processing

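No paired analysis was possible because the libraries of a group were merged into 1 value, which also kept any library from being left out. The pseudocount moved the low muscle isoforms most: Cox6a2 went from -1.37 to -1.64 with a pseudocount of 0.1, to -0.81 with 5 and to -1.48 under rescaling to TPM, and Cox8b from -1.39 to -1.53 and -0.99. The median of the 3 muscle isoforms went to -1.53 and -0.81, as a pseudocount shrinks low values by construction. With the threshold lowered to 0.32 on the log2 scale, 4 genes of the set were lower in place of 2, and 0 were higher. That is 4.49% of the 89 expressed genes lower, beside 7.03% lower and 7.04% higher among all expressed genes. The median of the other complex IV isoforms went from 0.00 to 0.15 under TPM, where Cox4i2 entered, and that of Ndufa4 from 0.27 to 0.17 with no filter, where Ndufa4l2 entered. The median of all expressed genes of the set stayed between -0.0292 and -0.0233 over 8 alternatives. The median of the genes that are not subunits turned from -0.0026 to 0.0017 under median centring. Of 124 values recomputed under an alternative, 113 stayed within 0.1 on the log2 scale, 5 percentage points or 1.5 times a count. Adding BC002163 to Ndufs5, which gave -0.12 in place of 0.19, was chosen after seeing the data. The spread between libraries is unknown.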
